A study of Danio rerio with 4 samples.

Results

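The platelet-derived growth factor (PDGF) family was examined in endothelial cells of the regenerating zebrafish heart. The members were chosen by name and comprised 6 ligand genes (*pdgfaa*, *pdgfab*, *pdgfba*, *pdgfbb*, *pdgfc* and *pdgfd*) and 2 receptor genes (*pdgfra* and *pdgfrb*). These 8 symbols matched 9 of the 32520 Ensembl genes in the count files, because 2 adjacent identifiers lie where the RefSeq table has the single gene *pdgfaa*. Of the 9, 8 passed the filter on low counts and were tested. In DNK, *pdgfra* was 2.52-fold higher and *pdgfbb* was 3.31-fold lower than in CtrlK, and no other member passed the test.

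PDGFs are secreted dimers that bind receptor tyrosine kinases and draw mesenchymal cells toward the source of the ligand. In mammals, PDGF-A, PDGF-B and PDGF-C act through PDGF receptor alpha, whereas PDGF-B and PDGF-D act through PDGF receptor beta. PDGF-B made by endothelial cells recruits the pericytes and smooth muscle cells of the vessel wall, which carry the beta receptor. In the zebrafish embryo, *pdgfra* guides the movement of cardiac precursors, and in the injured adult heart PDGF receptor signaling takes part in epicardial and coronary vessel growth.

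Adult fish of both groups carried *ubi:loxp-DsRed-STOP-loxp-DN-xBrg1*, a cassette that yields a dominant-negative *Xenopus* Brg1 once Cre has removed its stop, together with *kdrl:eGFP* (spelled *kdrl-eGFP* in the CtrlK labels). Brg1 is the ATPase of the SWI/SNF chromatin-remodeling complex. DNK fish also carried *kdrl:CreER*, in which the promoter of *kdrl* drives a Cre that 4-hydroxytamoxifen (4-HT) activates, and CtrlK siblings carried no CreER. Both groups received 4-HT, given as 3 days of treatment ahead of amputation in the labels and as a bath followed by resection 3 days later in the methods. EGFP-positive cells were sorted from pooled ventricles at 7 days post-amputation. The series has 2 DNK and 2 CtrlK libraries, which it calls biological replicates. The transgene itself was not analysed here, since the counts cover zebrafish genes, so the share of cells that had recombined is unknown.

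Each library held between 25189862 and 28770727 counts, and 3 counts, taken as the smallest detectable level, corresponded to between 0.104 and 0.119 CPM, that is, counts scaled to the library total. Both defining endothelial markers were abundant in every library. *cdh5* had 23986 and 18930 counts in DNK1 and DNK2, against 21101 and 26099 in CtrlK1 and CtrlK2. *kdrl*, whose promoter drove the eGFP of the sort and the Cre, had 19725 and 19779 counts in DNK, against 22782 and 28519 in CtrlK. It was lower in DNK, at -0.47 on the log2 scale (standard error 0.07, adjusted p = 0.011, edgeR quasi-likelihood test), and the adjusted p was 0.056 without CtrlK2. RNA of cardiomyocytes and erythrocytes was also present and stood apart by library. The 10 matched cardiomyocyte markers summed to 1498 CPM in DNK1 and 171 CPM in DNK2, against 16246 CPM in CtrlK1 and 5158 CPM in CtrlK2. In libraries of bulk RNA, fewer cells of a type and less RNA per cell cannot be told apart.

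Across all 17151 tested genes, 8.45% were called at an adjusted p under 0.05 (edgeR quasi-likelihood test, two-sided, Benjamini-Hochberg), 4.22% higher and 4.23% lower in DNK. At an unadjusted p under 0.05 the share was 23.9%, 11.3% higher and 12.6% lower, and by DESeq2 it was 15.8%, 7.41% higher and 8.35% lower. Of the 8 tested PDGF genes, 1 was called higher and 1 lower by edgeR, and DESeq2 likewise called 1 higher and 1 lower. At an unadjusted p under 0.05, 1 was higher and 3 were lower. For 2 members neither CtrlK library reached the lower DNK value, as held for 26.9% of all tested genes, and for 5 members the reverse held, as for 28.6% of all tested genes. The median log2 fold change was -0.71 over the 8 members and -0.02 over all tested genes. These counts are given as a description of the family. Normalized counts below were scaled by the TMM factors to a library of mean size. They are compared between libraries for one gene, not between genes, because transcript lengths were not used.

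**Figure D1:**
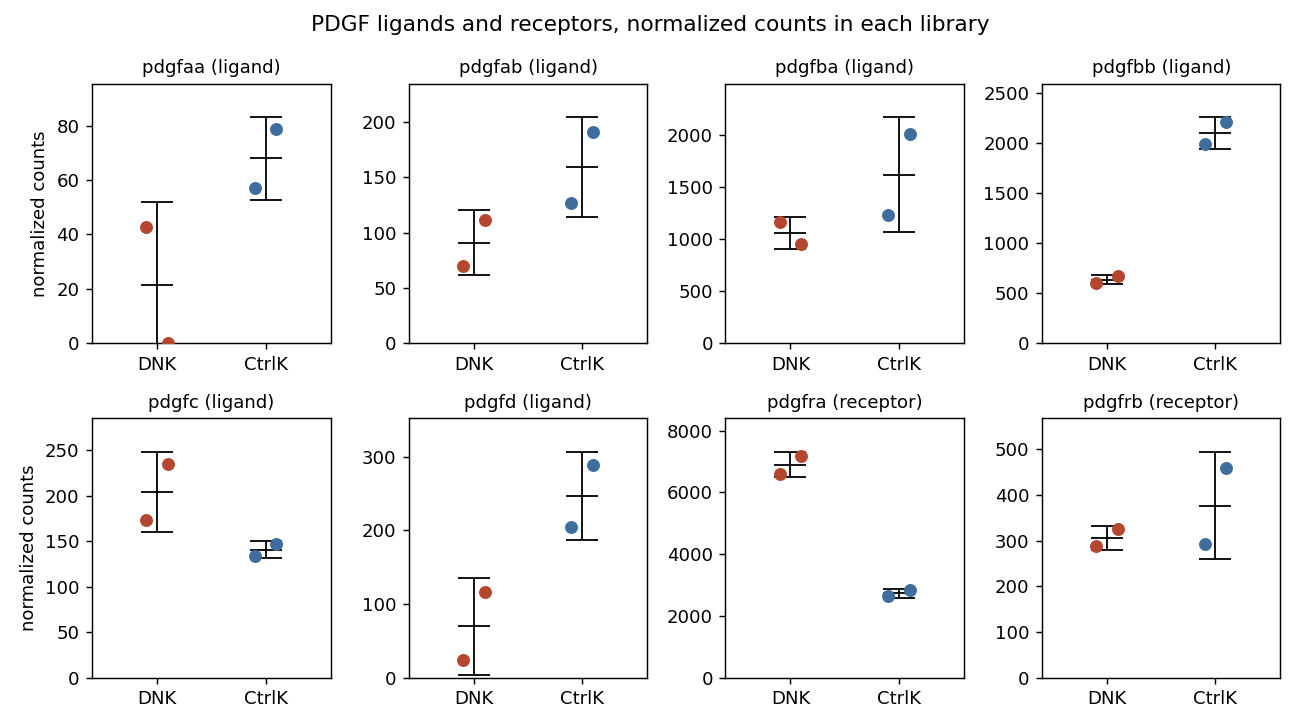
Normalized counts (vertical axis, each panel with its own scale from 0) of the PDGF genes in DNK (left, red) and CtrlK (right, blue). Points are libraries, the middle bar is the mean and the outer bars the SD (n = 2 per group), with the lower bar of *pdgfaa* in DNK ending at the axis. The groups lie far apart for *pdgfbb* and *pdgfra*, while the DNK libraries differ widely for *pdgfaa* and *pdgfd*.

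Among the ligands, *pdgfbb* (ENSDARG00000038139), one of the copies of the PDGF-B gene, was the only one called. It had 643 counts in DNK1 and 663 in DNK2, against 1732 in CtrlK1 and 2355 in CtrlK2. Neither DNK value came near either CtrlK value, and the libraries of each group stayed close to each other. Normalized counts averaged 633 ± 47.2 in DNK and 2095 ± 157 in CtrlK (SD, n = 2 per group). The log2 fold change was -1.73 (standard error 0.15, 95% interval -2.07 to -1.38, adjusted p = 0.00097, edgeR quasi-likelihood test). Across the 4 fits that omit a library it lay between -1.80 and -1.65, and each of them called it. Of the 726 genes called lower in DNK, 345 fell at least as far, *pdgfbb* included.

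The other copy of the PDGF-B gene, *pdgfba* (ENSDARG00000086778), had 1247 counts in DNK1 and 943 in DNK2, against 1072 in CtrlK1 and 2142 in CtrlK2. The CtrlK libraries differed 1.63-fold after scaling, and CtrlK1 lay close to DNK1. At -0.62 on the log2 scale (standard error 0.24), the difference did not pass the test (adjusted p = 0.18, edgeR quasi-likelihood test). Without CtrlK2 it was -0.22 and without CtrlK1 it was -0.93 (adjusted p = 0.66 and 0.052). Among the alternatives tried, *pdgfba* was called only when no filter on low counts was applied (adjusted p = 0.0071).

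The PDGF-A copies share one symbol in the table of identifiers and were told apart by the genes beside them. Of these, *pdgfab* (ENSDARG00000098578) had 75 and 111 counts in DNK1 and DNK2, against 111 and 204 in CtrlK1 and CtrlK2. Scaled values were 69.9 and 112 in DNK, against 127 and 191 in CtrlK, so that DNK2 and CtrlK1 were close together. The difference of -0.81 on the log2 scale (standard error 0.45) did not pass the test (adjusted p = 0.34, edgeR quasi-likelihood test). For *pdgfaa*, whose protein is a ligand of Pdgfra during zebrafish heart tube formation, the main identifier ENSDARG00000110069 had 46 counts in DNK1 and 0 in DNK2, against 50 in CtrlK1 and 84 in CtrlK2. A count of 0 in DNK2 allows a level of up to 0.113 CPM, while DNK1 stood at 1.63 CPM. DNK1 was thus much nearer to CtrlK1, at 1.98 CPM, than to its own replicate. The log2 fold change of -1.65 had a standard error of 1.51 (adjusted p = 0.58) and depended on which DNK library was kept, at -9.06 without DNK1, a value set by the 0 of DNK2, and -0.66 without DNK2. The adjacent identifier ENSDARG00000109371 had 3 and 0 counts in the DNK libraries, against 5 and 8 in the CtrlK libraries, and was not tested.

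The remaining ligands belong to the branch whose proteins carry a CUB domain and are activated by cleavage outside the cell. *pdgfc* (ENSDARG00000077588) had 186 counts in DNK1 and 234 in DNK2, against 117 in CtrlK1 and 157 in CtrlK2. It was the only ligand with a positive log2 fold change, 0.54 (standard error 0.35, adjusted p = 0.42, edgeR quasi-likelihood test). Its 95% interval spans 0, at -0.29 to 1.37. *pdgfd* (ENSDARG00000077677) had 25 counts in DNK1 and 116 in DNK2, against 178 in CtrlK1 and 308 in CtrlK2. Both DNK libraries lay below both CtrlK libraries, but they differed 5-fold from each other. The 95% interval of the *pdgfd* log2 fold change, not adjusted for multiple tests, was -3.53 to -0.11 (unadjusted p = 0.040, edgeR quasi-likelihood test). On the log2 scale DNK differed by -1.82 (standard error 0.71, adjusted p = 0.18), by -3.39 without DNK2 (adjusted p = 0.023) and by -1.08 without DNK1 (adjusted p = 0.24). *pdgfd* was thus called or not according to which DNK library was used, and it was also called when no filter on low counts was applied (adjusted p = 0.0014).

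The receptors differed in what they showed. *pdgfra* (ENSDARG00000070494), which encodes the alpha receptor, had 7087 counts in DNK1 and 7151 in DNK2, against 2299 in CtrlK1 and 3023 in CtrlK2. The DNK libraries differed 1.09-fold from each other after scaling and the CtrlK libraries 1.08-fold, both far less than the 2.52-fold difference between the groups. Normalized counts averaged 6896 ± 409 in DNK and 2733 ± 139.9 in CtrlK (SD, n = 2 per group). The log2 fold change was 1.34 (standard error 0.10, 95% interval 1.09 to 1.58, adjusted p = 0.00073, edgeR quasi-likelihood test). Omitting any one library gave 1.27 to 1.40, and each such fit called the gene. By p-value, *pdgfra* stood at place 74 and *pdgfbb* at place 105 among the 17151 tested genes.

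*pdgfrb* (ENSDARG00000100897), the gene of the beta receptor and a marker of mural cells, had 308 counts in DNK1 and 323 in DNK2, against 256 in CtrlK1 and 490 in CtrlK2. As raw counts the DNK values fell between the CtrlK values. After scaling, DNK1 (287) lay just below CtrlK1 (293), and DNK2 (325) lay between CtrlK1 and CtrlK2 (459), so the groups overlapped. The difference was -0.30 on the log2 scale (standard error 0.30) and did not pass the test (adjusted p = 0.61, edgeR quasi-likelihood test). The 95% interval spans 0, and the sign rested on CtrlK2, without which the value was 0.06. CtrlK2 had the highest normalized count of every ligand other than *pdgfc*, and of *pdgfrb*.

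**Figure D2:**
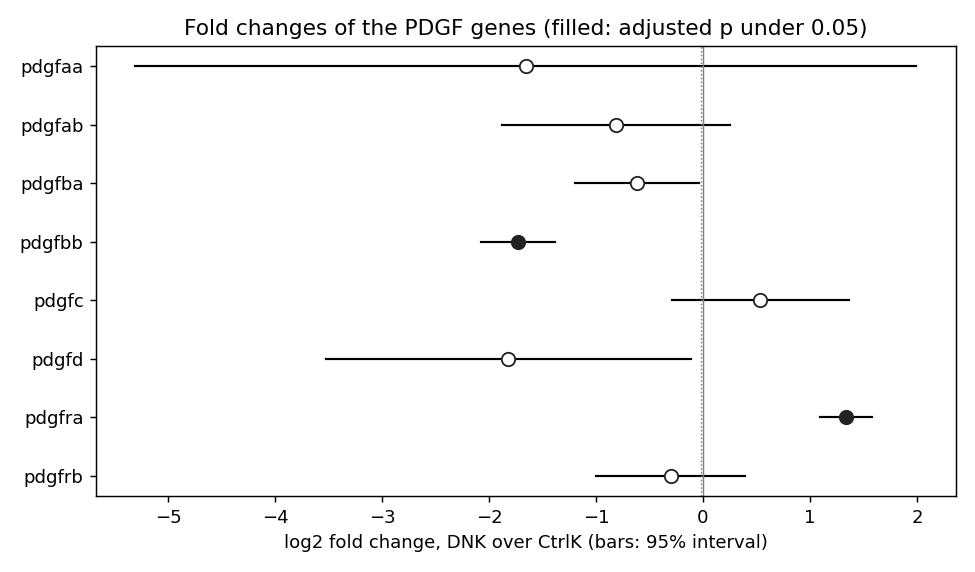
Log2 fold changes (horizontal axis, DNK over CtrlK) of the 8 tested PDGF genes with their 95% intervals, not adjusted for multiple tests. Filled points mark an adjusted p under 0.05, and the dotted line is the median of all tested genes. *pdgfbb* at -1.73 and *pdgfra* at 1.34 have narrow intervals, while those of *pdgfaa* and *pdgfd* span several log2 units.

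Ligand and receptor counts were next set against each other within each library, where the scaling between libraries cancels. There were 11.0 and 10.8 counts of *pdgfra* for each count of *pdgfbb* in DNK1 and DNK2, against 1.33 and 1.28 in CtrlK1 and CtrlK2. On the log2 scale this ratio was 3.06 higher in DNK, and the libraries of a group agreed closely. This value combines the separate changes of *pdgfra* (1.34) and *pdgfbb* (-1.73) given above and is no further result. For *pdgfba*, the same ratio was 5.68 and 7.58 in the DNK libraries, against 2.14 and 1.41 in the CtrlK libraries. Relative to *pdgfc* it was 38.1 and 30.6 in DNK, against 19.6 and 19.3 in CtrlK. PDGF-B is the main endothelial ligand of the beta receptor in mammals. The ratio of *pdgfrb* to *pdgfbb* was 0.479 and 0.487 in DNK, against 0.148 and 0.208 in CtrlK. For the other PDGF-B copy, *pdgfba*, it was 0.247 and 0.343 in DNK, against 0.239 and 0.229 in CtrlK, a smaller shift. Of these genes, *pdgfbb* passed the test as a single gene, and *pdgfrb* and *pdgfba* did not.

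Ratios were also taken within pairs of related genes, of which only *pdgfbb* and *pdgfra* were called as single genes. Counts of *pdgfba* per count of *pdgfbb* were 1.94 and 1.42 in the DNK libraries, against 0.619 and 0.910 in the CtrlK libraries. Counts of *pdgfra* per count of *pdgfrb* were 23.0 and 22.1 in DNK, against 8.98 and 6.17 in CtrlK. With 2 libraries per group, an exact permutation test of a ratio cannot go below p = 0.333 (two-sided), which 9 of the 10 ratios reached, so these ratios are given as values only. Transcript lengths differ between genes, so a ratio does not say which protein is more abundant.

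**Figure D3:**
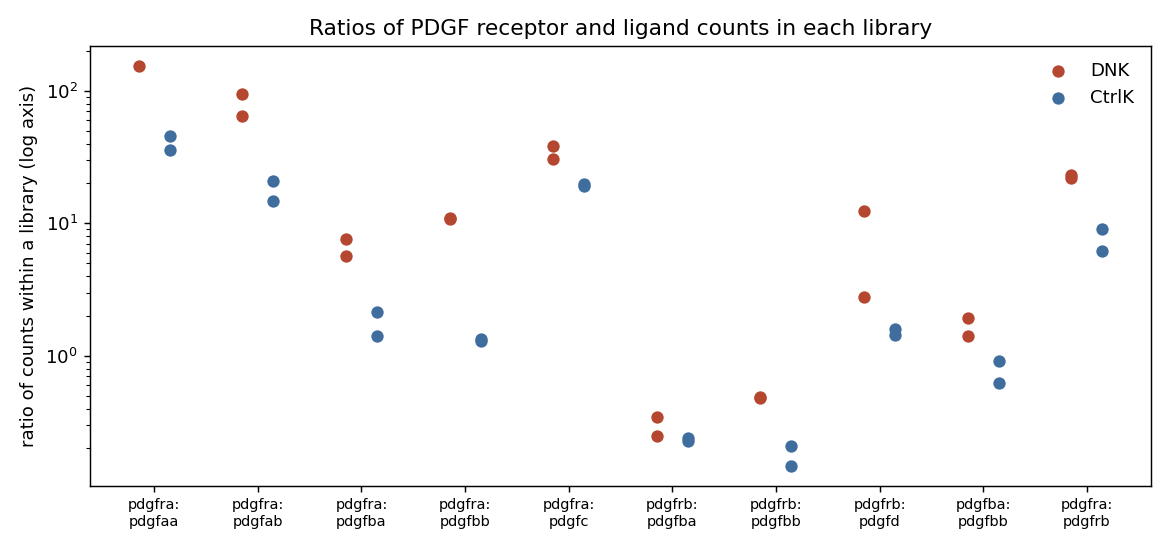
Counts of one PDGF gene divided by those of another in the same library (vertical log axis), for 10 pairs, with DNK libraries in red on the left of each pair and CtrlK libraries in blue on the right. The ratio of *pdgfra* to *pdgfaa* has no DNK2 point, because *pdgfaa* had 0 counts there. The 11.0 and 10.8 of *pdgfra* to *pdgfbb* in DNK stand above 1.33 and 1.28 in CtrlK.

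The genes that process, bind or transmit PDGF were read from 3 lists. Of 14 genes for processing and binding, 12 were matched and 10 tested. In DNK, 2 of these were called higher and 0 lower. These were also the only genes of the list at an unadjusted p under 0.05, and DESeq2 likewise called 2 higher and 0 lower. Over all tested genes, 4.22% were called higher by edgeR, 11.3% were higher at an unadjusted p under 0.05 and 7.41% were called higher by DESeq2. The median log2 fold change of the 10 tested genes was 0.16, against -0.02 over all tested genes. *furina* (ENSDARG00000062909) encodes a proprotein convertase of the furin type, the enzymes that cut PDGF-A and PDGF-B precursors in the secretory pathway. It had 4132 and 3926 counts in the DNK libraries, against 1117 and 1543 in the CtrlK libraries, which is 1.52 higher in DNK on the log2 scale (standard error 0.12, adjusted p = 0.00083, edgeR quasi-likelihood test). Its copy *furinb* had 491 and 355 counts in DNK, against 273 and 493 in CtrlK, so the groups overlapped.

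*sparc* (ENSDARG00000019353), which encodes a matrix protein that binds PDGF-B and hinders its binding to the receptor in mammals, was the other called gene. Its counts were 12135 and 13017 in DNK, against 5118 and 6509 in CtrlK, or 1.03 higher in DNK on the log2 scale (standard error 0.10, adjusted p = 0.0015). Both genes stayed called whichever library was omitted. The proteases that activate PDGF-C and PDGF-D in mammals are encoded by *plat* and *plaua*. *plat* was barely detected, with 27 and 31 counts in DNK, against 5 and 21 in CtrlK (adjusted p = 0.59). *plaua* had 1486 and 1165 counts in DNK, against 1394 and 793 in CtrlK (adjusted p = 0.89). The co-receptor genes *nrp1a* and *nrp1b* differed by -0.14 and 0.07 on the log2 scale (adjusted p = 0.70 and 0.89).

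All 26 genes for effectors of the activated receptor were matched and 25 were tested. In DNK, 2 of them were called higher and 0 lower, where 4.22% and 4.23% of all tested genes were. At an unadjusted p under 0.05, 3 were higher and 2 lower, where 11.3% and 12.6% of all tested genes were, and DESeq2 called 3 higher and 1 lower, where it called 7.41% and 8.35% of all genes. The unadjusted counts are thus near the share over all genes. Among them, *pik3r2*, a regulatory subunit of phosphoinositide 3-kinase, had 1148 and 1091 counts in DNK, against 549 and 536 in CtrlK. It was 0.94 higher on the log2 scale (standard error 0.18, adjusted p = 0.026, edgeR quasi-likelihood test), and the call was lost without CtrlK2, DNK1 or DNK2 (adjusted p = 0.098, 0.072 and 0.094). The median log2 fold change of the 25 genes was 0.06.

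Of 13 genes for brakes on the receptor, such as the ubiquitin ligases *cbl* and *cblb*, the Ras inhibitors *rasa1a* and *rasa1b* and receptor phosphatases, 11 were matched and tested and none was called by edgeR. At an unadjusted p under 0.05, 0 were higher and 1 was lower, and DESeq2 called none. Over all tested genes, edgeR called 8.45% and DESeq2 15.8%, and 11.3% were higher and 12.6% lower at an unadjusted p under 0.05. The log2 fold changes of the 11 genes lay between -0.68 and 0.28 with a median of 0.05.

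Cells that carry PDGF receptors or store PDGF were looked for with marker lists. Mural cells, the smooth muscle cells and pericytes that follow PDGF-B, were represented by 12 matched markers without *pdgfrb*. Of these, 0 were called higher and 3 lower, with 0 higher and 5 lower at an unadjusted p under 0.05, and DESeq2 likewise called 0 higher and 3 lower. Over all tested genes, 4.23% were called lower by edgeR, 12.6% were lower at an unadjusted p under 0.05 and 8.35% were called lower by DESeq2. By log2 fold change, 1 of the 12 tested markers was higher in DNK (*notch3*, 0.37, not called) and 11 were lower. The list summed to 133 and 158 CPM in the DNK libraries, against 327 and 322 CPM in the CtrlK libraries. Of these sums, *kcne4* alone made up 61.3 and 68.6 CPM in DNK, against 137 and 160 CPM in CtrlK. *rgs5a*, a pericyte gene, had 25 and 4 counts in DNK, against 651 and 994 in CtrlK (log2 fold change -5.91, standard error 0.63, adjusted p = 0.0037). *kcne4* and *myh11a*, chosen after their values were seen, were lower by the test as well, at -1.26 and -1.01 on the log2 scale (adjusted p = 0.0016 and 0.0096), and all 3 were called with each library left out.

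Some mural genes varied within a group. *acta2*, the smooth muscle actin, had 25 and 3 counts in DNK, against 918 in CtrlK1 and 16 in CtrlK2. *cspg4*, which encodes the pericyte proteoglycan NG2, had 28 and 0 counts in DNK, against 12 and 30 in CtrlK. *pdgfrb* did not pass the test in libraries where *rgs5a* did, and the part of mural cells in the values of the family was not tested.

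Fibroblasts, for which *pdgfra* is a common marker in mammals, were represented by 12 matched genes, of which 10 were tested. Of these, 4 were called higher and 0 lower by edgeR, where 4.22% of all tested genes were called higher. At an unadjusted p under 0.05, 5 were higher and 0 lower, where 11.3% of all tested genes were higher. DESeq2 called 5 higher and 1 lower, where it called 7.41% and 8.35% of all tested genes. The 4 genes called by edgeR were collagen chains, *col1a1a*, *col1a1b*, *col1a2* and *col5a1*, with log2 fold changes between 0.59 and 0.79. *col1a2* had 26722 and 26602 counts in DNK, against 13231 and 17741 in CtrlK (log2 fold change 0.70, standard error 0.08, adjusted p = 0.0032, edgeR quasi-likelihood test). The list summed to 3541 and 3747 CPM in DNK, against 2248 and 2554 CPM in CtrlK. Most of each sum came from *col1a1a*, *col1a1b*, *col1a2* and *dcn*, so it says little of the other markers. *tcf21*, the epicardial and fibroblast transcription factor, had 14 and 0 counts in DNK, against 19 and 56 in CtrlK. *dcn*, the gene of the matrix proteoglycan decorin, had 12410 and 12505 counts in DNK, against 11670 and 15251 in CtrlK (log2 fold change -0.20, adjusted p = 0.21). *fbln1* and *postnb* were named after their values were seen. *fbln1* had 93 and 207 counts in DNK, against 36 and 22 in CtrlK. Its log2 fold change of 2.25 (standard error 0.65) was the highest of the list but was not called (adjusted p = 0.081). *postnb* had 1 and 0 counts in DNK, against 818 and 18 in CtrlK (adjusted p = 0.29). By log2 fold change, 5 of the 10 tested markers were higher in DNK and 5 lower. The fibroblast markers thus did not move together, and their part in the higher *pdgfra* was not tested. *col5a1* was not called without CtrlK1, CtrlK2 or DNK2 (adjusted p = 0.055, 0.065 and 0.078).

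Epicardial markers gave no call by edgeR among 3 tested genes, where 8.45% of all tested genes were called. With an unadjusted p under 0.05, 0 were higher and 1 was lower, and DESeq2 called 1 lower. These thresholds gave 12.6% and 8.35% lower over all tested genes. The lower one in both was *tbx18*, an epicardial transcription factor gene named after its values were seen, with 0 and 4 counts in DNK, against 47 and 62 in CtrlK (adjusted p = 0.080, edgeR quasi-likelihood test). The list summed to 530 and 620 CPM in DNK, against 498 and 618 CPM in CtrlK, but *aldh1a2*, which endocardial cells also express, made up 529 and 617 CPM of this in DNK, against 495 and 616 CPM in CtrlK. *wt1a* was at 0 in every library and was not tested. *wt1b*, which was also named after its values were seen, had 21 and 60 counts in DNK, against 29 and 11 in CtrlK. The groups thus overlapped. Of the 3 tested markers, *wt1b* alone leaned higher in DNK, by 0.88 on the log2 scale, and edgeR did not call it (adjusted p = 0.67, quasi-likelihood test). The other 2 leaned lower.

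Thrombocytes, the fish counterpart of the platelets that gave PDGF its name, were represented by 6 matched genes, of which 5 were tested. Of these, 0 were called higher and 3 lower (edgeR quasi-likelihood test), with the same numbers at an unadjusted p under 0.05 and by DESeq2. Over all tested genes, 4.23% were called lower by edgeR, 12.6% were lower at an unadjusted p under 0.05 and 8.35% were called lower by DESeq2. *itga2b*, the thrombocyte integrin, had 0 counts in both DNK libraries, against 37 and 172 in CtrlK, at least 35.0-fold lower when DNK is set to 3 counts per library. This bound was 55.5-fold without CtrlK1 and 14.6-fold without CtrlK2. *itga2b* was not called without CtrlK2 (adjusted p = 0.17), and the other called genes, *mpl* and *gp1bb*, had low counts and lost the call in 4 and 3 of the 4 fits that left a library out. The list summed to 89.9 and 74.7 CPM in DNK, against 113 and 105 CPM in CtrlK, mostly from *thbs1b*, which was not called (adjusted p = 0.24). Leukocyte markers, which include macrophage genes, had 3 of 5 tested genes called lower and 0 higher, among them *ptprc* with 521 and 341 counts in DNK, against 1075 and 911 in CtrlK. DESeq2 called 4 lower and 0 higher, as did an unadjusted p under 0.05, beside the same shares over all tested genes as above. *ptprc* was not called without CtrlK1 or DNK2 (adjusted p = 0.12 and 0.094), and *coro1a* was not called without CtrlK1, DNK1 or DNK2 (adjusted p = 0.14, 0.071 and 0.11). *lcp1*, the third called gene, was called whichever library was omitted. The leukocyte list summed to 157 and 135 CPM in DNK, against 286 and 289 CPM in CtrlK. The part of thrombocytes and leukocytes in the lower *pdgfbb* was not tested.

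The cardiomyocyte and erythrocyte lists differed within groups as well as between them. Summed cardiomyocyte markers differed 8.77-fold between the DNK libraries and 3.15-fold between the CtrlK libraries. Within the same groups *pdgfra* differed 1.09-fold and 1.08-fold, and *pdgfbb* differed 1.11-fold in each. Summed erythrocyte markers were 2.59 and 15.2 CPM in DNK, against 195 and 48.9 CPM in CtrlK, with 2 of 5 genes called lower and 0 higher (3 lower at an unadjusted p under 0.05 and 4 by DESeq2), and *hbaa1* had 68 and 372 counts in DNK, against 4025 and 1173 in CtrlK. None of the 10 cardiomyocyte markers was called by edgeR in either direction or had an unadjusted p under 0.05, and DESeq2 called 4 lower. By log2 fold change, 9 of the 10 were lower in DNK and 1 was higher, with a median of -3.44. The higher one, *myh6*, had 84 and 30 counts in DNK, against 0 and 28 in CtrlK. *myl7* had 14843 and 1438 counts in DNK, against 133259 and 43635 in CtrlK. Over all tested genes, 4.22% were called higher and 4.23% lower by edgeR. At an unadjusted p under 0.05, 11.3% of all tested genes were higher and 12.6% lower, and DESeq2 called 7.41% higher and 8.35% lower. The part of cardiomyocyte and erythrocyte RNA in the values of the PDGF genes was not tested. Of the 9 endothelial markers, 1 was called higher and 2 lower. At an unadjusted p under 0.05, 1 was higher and 4 were lower, and DESeq2 called 1 higher and 3 lower. The higher one was *flt1*, at 0.54 on the log2 scale (standard error 0.08, adjusted p = 0.0069, edgeR quasi-likelihood test). Omitting single libraries gave 0.53 to 0.56 for *flt1*. One of the lower genes, *egfl7*, lost its call whichever library was omitted (adjusted p between 0.062 and 0.10) and under scaling to total counts (adjusted p = 0.12). The 9 markers summed to 5101 and 5060 CPM in DNK, against 5095 and 5703 CPM in CtrlK.

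**Figure D4:**
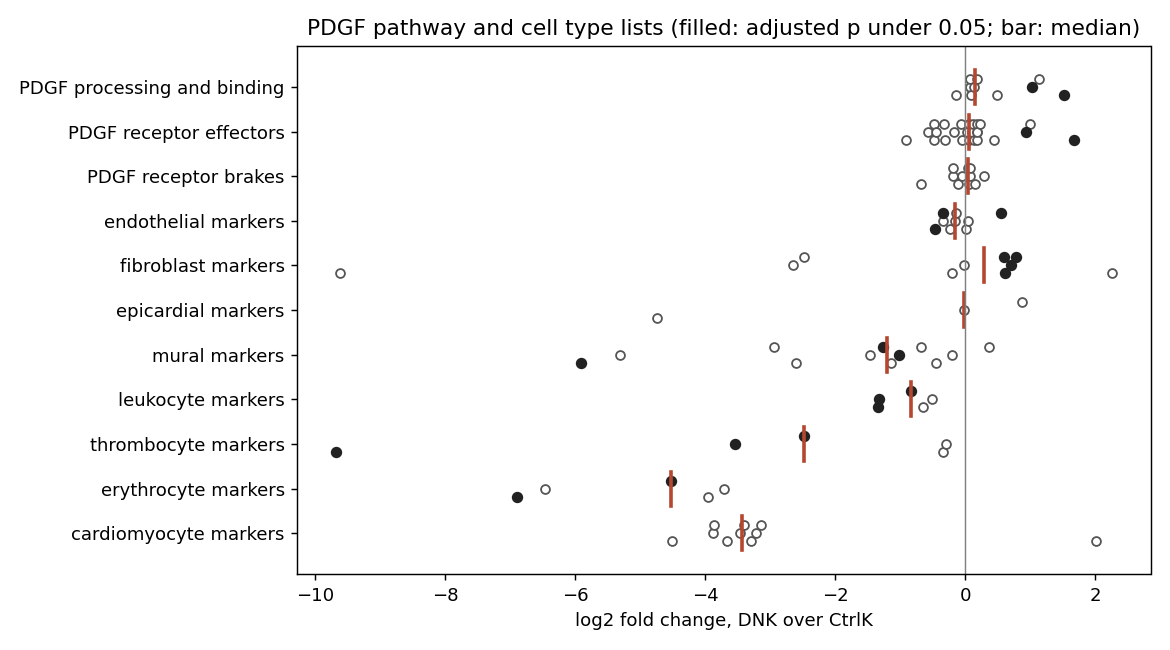
Log2 fold changes (horizontal axis, DNK over CtrlK) of the tested genes of the PDGF pathway and cell type lists, filled where the adjusted p is under 0.05, with the median of each list as a red bar. Values of genes at or near 0 counts in one group, such as *itga2b*, depend on the prior count and are no measure of size. The medians of the PDGF pathway lists lie between 0.05 and 0.16, that of processing and binding being the highest, with *furina*, *sparc* and *pik3r2* among the called genes.

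The genes whose pattern over the 4 libraries was most like that of *pdgfra* and *pdgfbb* were sought by the distance between log2 CPM profiles centred on each gene's mean, among the 12958 named genes that averaged 50 counts or more. Nearest to *pdgfra* were SNX8 (as the table of identifiers writes it), *hist2h2l* and *sfrp5*, at distances of 0.05, 0.07 and 0.08 on the log2 scale. *sfrp5*, which encodes a secreted Wnt antagonist, had 22829 and 23253 counts in DNK, against 7003 and 9357 in CtrlK. Nearest to *pdgfbb* were *slc14a2*, zgc:172122 and *mhc2dhb*, at distances of 0.06, 0.07 and 0.07. *hist2h2l* and *mhc2dhb* belong to multigene families, where unique mapping can split or drop reads. *slc14a2*, a urea transporter gene, had 119 and 123 counts in DNK, against 336 and 432 in CtrlK. With 4 libraries, many genes called in one direction lie close to each other, so the distances only describe the shape of the pattern.

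The place of the genes was also compared. In RefSeq (GRCz12tu), *pdgfra* lies next to *kita* on chromosome 20 and *pdgfrb* next to *csf1ra* on chromosome 14, so that each lies beside another receptor of its own class. The RefSeq extent of *pdgfra* also holds *gsx2*, a homeobox gene that had 0 counts in all 4 libraries. A long non-coding RNA gene, LOC141379564, overlaps *pdgfra* as well, but it matched no identifier and so has no counts here. *kita*, a copy of the gene for the stem cell factor receptor of mammals, had 0 and 13 counts in DNK, against 68 and 61 in CtrlK. It differed by -3.36 on the log2 scale (standard error 1.40) and did not pass the test (adjusted p = 0.20, edgeR quasi-likelihood test). *csf1ra*, a copy of the gene for the macrophage growth factor receptor, had 652 and 409 counts in DNK, against 527 and 902 in CtrlK (adjusted p = 0.31). Of 5 receptor genes of this class, chosen after values were seen, 3 were tested and none was called by edgeR or DESeq2. With an unadjusted p under 0.05, 0 were higher and 1 was lower, where 12.6% of all tested genes were lower. Over all tested genes, edgeR called 8.45% and DESeq2 15.8%. *kdr*, a vascular endothelial growth factor receptor gene beyond *kita*, had 8770 and 6416 counts in DNK, against 5976 and 7883 in CtrlK (adjusted p = 0.90). Of the 10 tested genes nearest to *pdgfra* by row, none was called by edgeR, while 3 had an unadjusted p under 0.05 and 2 were called by DESeq2, where 23.9% and 15.8% of all tested genes were. Their log2 fold changes had a median of -0.26 and ranged from -3.41 to 1.48, and that of *pdgfra* was 1.34. Of the 10 nearest to *pdgfbb*, 1 was called higher and none lower by edgeR, where 8.45% of all tested genes were called. Among these 10, 2 had an unadjusted p under 0.05 and 1 was called by DESeq2, beside 23.9% and 15.8% of all tested genes. Their median log2 fold change was -0.10. Whether genes beside each other changed together was not tested.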

How the data were processed

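RNA-seq libraries of sorted cells from DNK and CtrlK ventricles were analysed, 2 per group. Per the labels and methods, the authors checked reads with FastQC 0.11.9, mapped them to GRCz11 with HISAT2 2.2.1, and counted uniquely mapped reads per Ensembl gene with featureCounts 2.0.1. The authors deposited these counts without normalization or filtering. The strand setting is not given in the sources used here, so overlapping and antisense genes are uncertain, and reads shared by near-identical copies were left out. The DNK files carry the name DNF, so the replicate numbers of that group are uncertain.

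Genes passing filterByExpr (17151) were scaled with TMM and tested with edgeR 4.0.16 (glmQLFit with robust estimation, glmQLFTest, group as the only term) in R 4.3.3. P-values were adjusted by Benjamini-Hochberg over all tested genes, with 0.05 as the threshold for a call. The standard error is the absolute log2 fold change divided by the square root of F, and 95% intervals use the moderated degrees of freedom. Library totals lay between 25189862 and 28770727 counts. The study's methods used DESeq2 after an FPKM filter, which needs exon lengths not used here, and DESeq2 1.42.0 was run as an alternative. The others were 2 other scalings, 2 other count filters, edgeR without robust estimation, a replicate block and each library left out. The test was checked on counts simulated with the spread typical of genes at the same level. Extra spread of single genes, and markers that differ by library as here, were not simulated, so the check does not cover them.

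An identifier received a zebrafish symbol where the table of identifiers gave that symbol or its human-style family symbol, and where named genes within 25 rows lay on the chromosome that RefSeq (GRCz12tu) gives for it. Of 141 listed symbols, 125 were matched. Promoter, protein and exon sequences were not used here. The members and gene lists were chosen with earlier results of these data known. Genes to be named outside the family were the called genes of the 3 PDGF pathway lists, at most 4 per list and direction (1 called effector is not reported here), the 3 genes most alike to each called member, and fixed cell type markers. All other named genes, which include uncalled genes of the pathway lists, other receptors of the class, further markers and the genes next to the members, were chosen after values were seen.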

Additional observations from a re-analysis of the deposited data

How the results depend on the processing

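*pdgfra* and *pdgfbb* kept their direction and their call under every alternative, those that omit a library included. Without a filter on low counts, where 24155 genes were tested, *pdgfba* (-0.61, adjusted p = 0.0071) and *pdgfd* (-1.81, adjusted p = 0.0014) were also called lower, so that 3 PDGF genes were lower, 2 effectors became lower against 0, and 1315 genes were higher and 1775 lower over all genes. DESeq2 called 1271 genes higher and 1432 lower over all genes, and 1 effector lower. For both settings the cause was not tested. Omitting single libraries gave log2 fold changes from -9.06 to -0.66 for *pdgfaa*, from -3.39 to -1.08 for *pdgfd*, and from -0.58 to 0.063 for *pdgfrb*, whose sign turned without CtrlK2. *pdgfaa* was called without DNK1 (adjusted p = 0.032), where the 0 of DNK2 set the value. Leaving out a library gave 354 to 425 genes higher and 328 to 567 lower, 1 to 2 PDGF genes lower, and 1 to 2 effectors higher. These fits had fewer samples, and the lone library was assumed to vary like the other group.

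Replicate numbers gave 2 pairs whose differences correlated at 0.090, which shows no clear pairing of the samples. With 2 pairs and uncertain DNK replicate numbers, this value cannot decide whether the samples were paired. With a replicate block, *pdgfra* was 1.34 higher (adjusted p = 0.00037), *pdgfbb* was -1.73 (adjusted p = 0.00072), *pdgfd* was -2.16 (adjusted p = 0.053), and 1641 genes were called in place of 1449; no call of a PDGF gene changed. Requiring 10 counts in every library gave no value for *pdgfaa*. Scaling to total counts moved the median of all genes to 0.05, against -0.02 with TMM. Summing the *pdgfaa* identifiers, chosen after seeing the data, gave -1.70 (adjusted p = 0.58). With 2 libraries per group, the differences seen for *pdgfab* and *pdgfc* did not pass the edgeR quasi-likelihood test (adjusted p = 0.34 and 0.42). That test draws on the spread of all genes and adjusts over all tested genes. The lack of a call is thus no measure of the replicate spread of these genes alone.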
